A study of Arabidopsis thaliana with 39 samples.

Results

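The comparison of iron-free (-Fe) with iron-sufficient (+Fe) medium at 12 h covered all 806 genes of the deposited table, with no further choice of members. The 806 genes were deposited as differentially expressed genes, by a selection not given in the sources used here, so they are not a sample of the whole transcriptome. Root epidermis was sorted from 7-day-old Arabidopsis thaliana Col-0 seedlings that carried pWER::GFP, a green fluorescent reporter driven by the promoter of the epidermal regulator WEREWOLF. At 0 h all seedlings left +Fe medium (standard Murashige and Skoog medium with 1% sucrose and 0.1 mM FeEDTA) and were moved either to fresh +Fe medium or to -Fe medium. By the labels the latter had no FeEDTA and held 300 uM ferrozine, which binds iron, so that iron supply and ferrozine cannot be told apart. Both groups carried the same transgene, and both had been transferred. The series held 39 libraries in 13 groups of 3, and 3 libraries at 12 h on each medium and 3 at 0 h enter the comparison. The table gives 1 pooled value per gene and group in RPKM (reads scaled to transcript length and to a total of reads). Here that total appears to be that of the 806 genes alone, so each level and ratio below is relative to these genes. With 1 value per group the table holds no spread between libraries, and no difference below was tested.

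Arabidopsis roots take up iron by a reduction-based strategy, in which ferric iron outside the epidermis is solubilised by protons and secreted coumarins, reduced by the ferric reductase FRO2 and carried into the cell by the transporter IRT1. The bHLH factor FIT, together with bHLH38, bHLH39 and their relatives, switches on these genes when iron is scarce, and BTS-type ubiquitin ligases restrain the response. A separate programme of plant cells, the low-energy response, switches on genes for the breakdown of amino acids and other reserves when sugar runs short.

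At 12 h, 87 of the 806 genes (10.8%) were at least 0.75 higher on -Fe than on +Fe on the log2 scale of RPKM + 1, and 190 (23.6%) were at least 0.75 lower. Together they made 277 genes (34.4%), and the remaining 529 lay between. The threshold is the fold limit of the study's methods, used here without their test. The phloem protein gene PP2-A10 and the iron transporter gene IRT1 had the largest ratios, and IRT1, FRO4, IRT2, bHLH38 and MTP3, all of the iron lists below, were among the 15 highest. The nitrate transporter genes NRT2.6 and NRT1.8 had the lowest ratios, and MIOX4, DIN3, CYP71A12 and IGMT3 were among the 15 lowest. The median ratio over all genes was 0.07, with quartiles of -0.67 and 0.40. By at least 1, 54 genes were higher and 145 lower, by at least 2 the counts were 14 and 18, and by at least 3 they were 4 and 4. The split also depends on the scale of the 2 groups, since adding 0.24 to every ratio gave 150 genes higher and 148 lower.

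**Figure D1:**
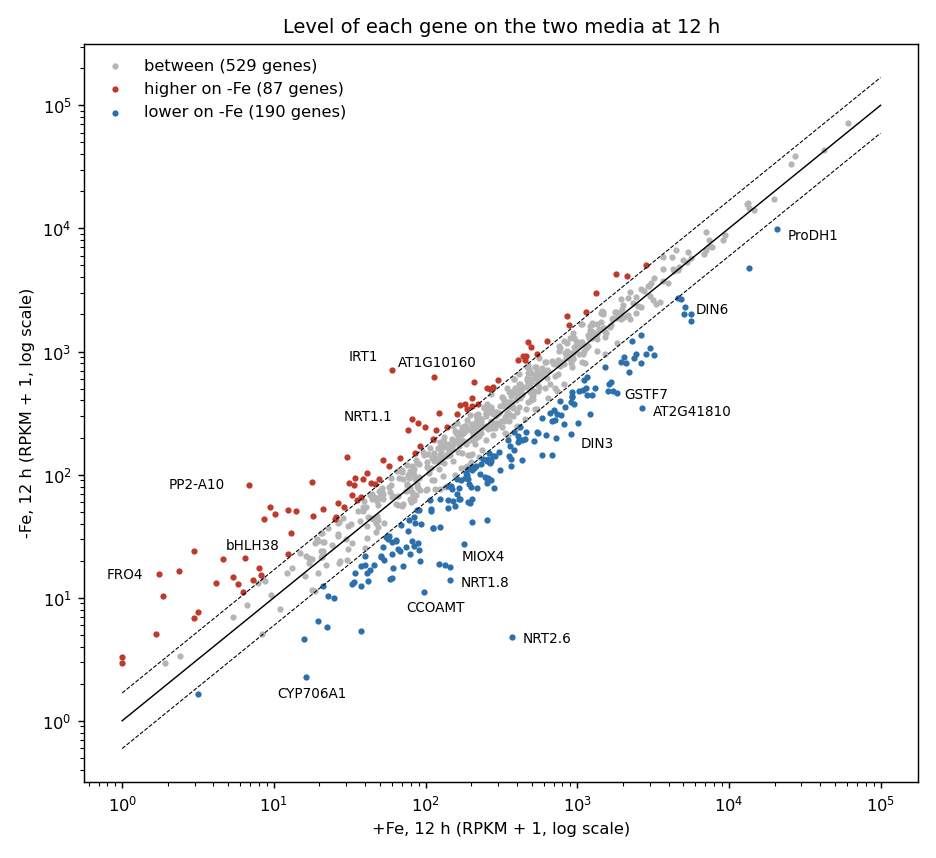
Level of each of the 806 genes at 12 h on +Fe medium (horizontal) and -Fe medium (vertical), in RPKM + 1 on log axes, 1 point per gene. The solid line marks equal levels and the dashed lines a log2 ratio of 0.75 either way. The 190 genes below the lower dashed line outnumber the 87 above the upper one, and NRT2.6 lies farthest from the diagonal.

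IRT1 (AT4G19690), the main iron transporter of the root epidermis, was listed at 19.5 RPKM at 0 h, 58.8 on +Fe at 12 h and 708 on -Fe at 12 h. Its ratio of 3.57 was the second largest of the table. Its levels on -Fe were 432 RPKM at 6 h and 959 at 18 h, against 155 and 35.4 on +Fe. IRT1 was thus higher on -Fe at each of the 3 times, and on +Fe it was above its 0 h level as well. Its neighbour IRT2, a close relative of IRT1, was at 7.63 RPKM on +Fe and 42.5 on -Fe at 12 h, a ratio of 2.33. FRO4, a ferric and cupric reductase, was at 0.738 RPKM on +Fe and 14.6 on -Fe (3.17), so that its ratio rests on a very low +Fe value. MTP3, which moves zinc into the vacuole, was at 12.9 and 49.1 RPKM (1.85). OPT3, an iron and copper transporter of the phloem, was at 51.5 and 129 RPKM (1.31), and the copper transporter COPT2 was at 20.2 and 51.1 RPKM (1.30). Of 31 iron uptake effectors in a list of known genes, 10 were in the table, and these 6 were higher on -Fe past the threshold, against 10.8% of all genes. Their median ratio was 1.31, beside 0.07 for all genes.

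The remaining 4 effectors in the table were not higher past the threshold. FRO2, the ferric reductase of the root surface, was at 343 RPKM on +Fe and 504 on -Fe, a ratio of 0.55 that stayed inside the threshold. FRO3, a reductase of mitochondria, had a ratio of 0.39, and NRAMP4, which exports iron from the vacuole, one of 0.06. F6'H1, the enzyme that commits phenylpropanoids to coumarins, was lower on -Fe, at 140 RPKM on +Fe and 52.7 on -Fe (-1.40). It was lower on -Fe at 6 h and 18 h too, with ratios of -1.05 and -0.81.

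Among 20 iron regulators listed, 7 were in the table and 4 were higher past the threshold, against 10.8% of all genes, with a median ratio of 1.28. bHLH38 was at 0.789 RPKM at 0 h, 3.59 on +Fe and 19.6 on -Fe at 12 h (2.17), and 386 bases of its exons are shared with AT3G56960 on the opposite strand. bHLH39 was more abundant, at 98.8 RPKM on +Fe and 244 on -Fe (1.30), and bHLH101 was at 32.7 and 80.7 RPKM (1.28). IMA2, which encodes a small iron-regulatory peptide, was listed at 0 on +Fe and at 2.33 RPKM on -Fe. The other gene listed at 0 on +Fe, the defensin-like AT1G13609, was at 1.96 RPKM on -Fe, and with a pseudocount of 10 both were inside the threshold. FIT itself was at 851 RPKM at 0 h, 702 on +Fe and 790 on -Fe at 12 h, a ratio of 0.17. The ubiquitin ligases BTS and BTSL1 had ratios of 0.49 and 0.42 at 12 h, against -0.21 and -0.30 at 6 h, and 471 exon bases of BTSL1 are shared with AT1G74750 on the opposite strand. At 12 h bHLH38, bHLH39 and bHLH101, the bHLH partners of FIT found in the table, were therefore past the threshold. FIT, BTS and BTSL1 were not.

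The 3 ferritins in the table, FER1, FER3 and FER4, store iron in plastids and mitochondria. None was past the threshold, beside 34.4% of all genes, with ratios of 0.13, -0.73 and -0.58. FER1 was at 230 RPKM at 0 h and at 60.0 and 65.9 RPKM at 12 h, so it was below its 0 h level on both media. The zinc transporters ZIP5 and IRT3 were the only 2 of 17 listed copper, zinc and superoxide genes in the table. Both were lower on -Fe (-0.81 and -0.88), beside 23.6% of all genes. ZIP5 was not past the threshold against the mean of +Fe at 6 h and 18 h (-0.67). It was also inside with a pseudocount of 10 and after rescaling without the 10 largest genes. The list does not hold MT1C, a metallothionein, picked here after its value was seen, which was at 75.3 RPKM on +Fe and 228 on -Fe (1.58).

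**Figure D2:**
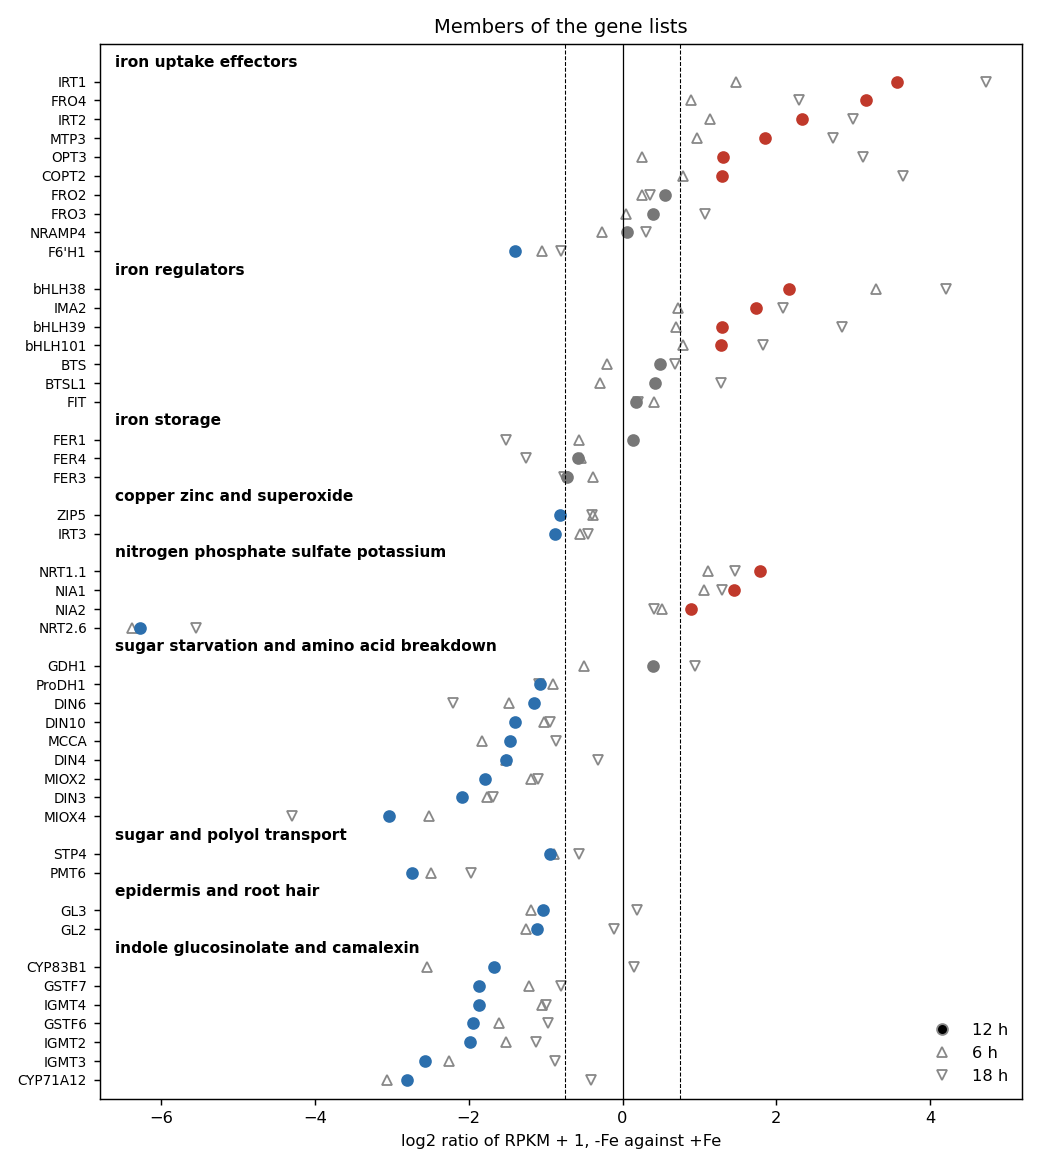
Log2 ratio of -Fe to +Fe (RPKM + 1) of every table member of 9 gene lists, at 12 h (filled circles), 6 h (triangles pointing up) and 18 h (triangles pointing down). Dashed lines mark 0.75 either way, and circles are red above it, blue below it and grey between. IRT1, FRO4 and IRT2 lie to the right, while the indole and most sugar starvation members lie to the left.

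The remaining leaders of the higher direction have mixed functions. PP2-A10, a phloem lectin-type protein, had the largest ratio (3.58), at 67.9 RPKM at 0 h, 5.90 on +Fe and 81.3 on -Fe. Exons of PP2-A10 share 1790 bases with AT1G10150 on the opposite strand, so reads of both cannot be told apart unless strand was used in counting, which the sources used here do not give. The neighbouring AT1G10160, of no stated function and 4500 exon bases, followed a like pattern at 595, 113 and 615 RPKM (2.44). GRF11, a 14-3-3 protein, was at 1.99 RPKM on +Fe and 23.1 on -Fe (3.01), and the zinc finger factor STOP2 was at 9.25 and 46.4 RPKM (2.21). The lipid transfer type protein AT3G18280 had a ratio of 2.81 from 1.35 RPKM on +Fe, and its level at 0 h was 43.3 RPKM. Against the mean of +Fe at 6 h and 18 h its ratio was 0.42, inside the threshold. The methyltransferase AT2G41380 (2.29), the uncharacterized AT2G14247 (2.52), the ABC transporter ABCB15 (2.19), the P-type ATPase AT3G63380 (2.05) and the nitrate transporter NRT1.1 (1.79) complete the 15 highest genes with at least 10 RPKM on -Fe. In 7 of these 15 genes, namely IRT1, FRO4, GRF11, AT2G14247, IRT2, bHLH38 and MTP3, the -Fe level at 12 h was over 3 times the level at 0 h. In the other 8 it was near or below the level at 0 h, and the +Fe level was the lower one.

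**Figure D3:**
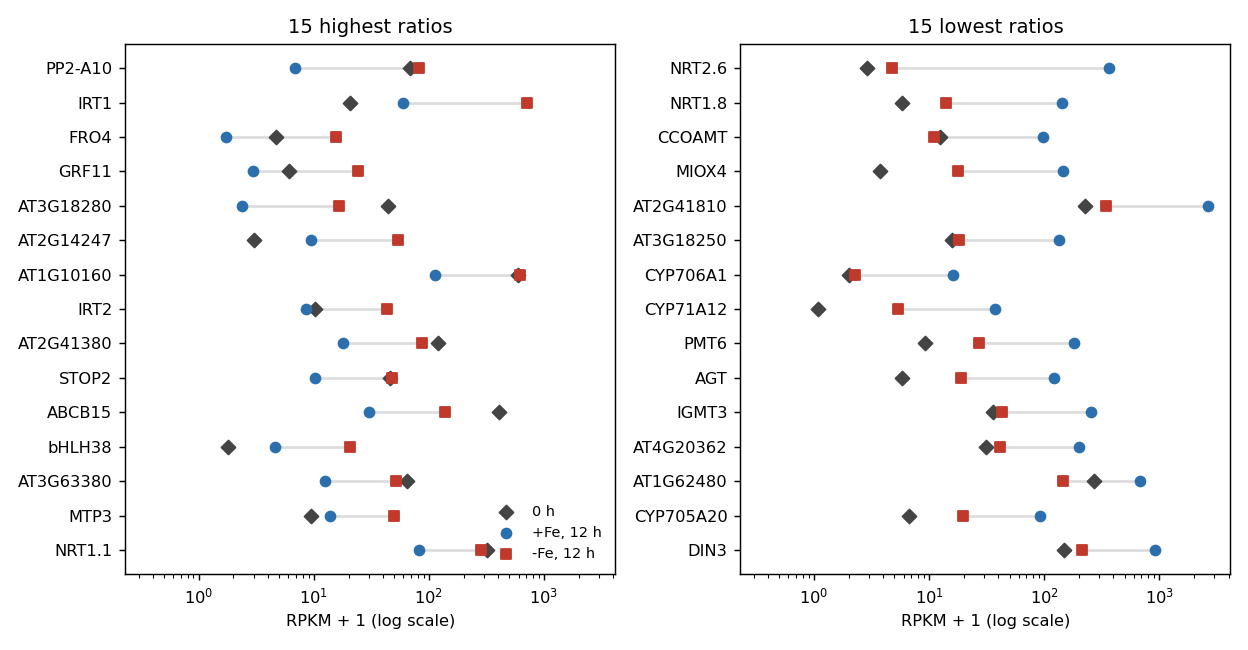
RPKM + 1 (log axis) at 0 h (diamonds), on +Fe at 12 h (circles) and on -Fe at 12 h (squares) for the 15 highest and 15 lowest ratios among genes with at least 10 RPKM in the higher group. In each of the 15 lowest genes the 0 h value lies nearer to the -Fe square than to the +Fe circle, as for NRT2.6 at 1.89, 368 and 3.78 RPKM. IRT1 and MTP3 have their -Fe square farther from the 0 h diamond.

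Nitrate genes stood at both ends of the table. NRT2.6 (AT3G45060), of the high-affinity nitrate transporter family, had the lowest ratio of all genes (-6.27), at 1.89 RPKM at 0 h, 368 on +Fe and 3.78 on -Fe at 12 h. On +Fe it was listed at 374 RPKM at 6 h and 180 at 18 h, and on -Fe at 3.52 and 2.87 RPKM. It was therefore high in each of the 3 +Fe groups and near its 0 h level in each -Fe group. NRT1.8, which retrieves nitrate from the xylem, was second lowest (-3.36), at 4.84 RPKM at 0 h, 143 on +Fe and 13.0 on -Fe. NRT1.1, a nitrate transporter and sensor, went the other way, at 319 RPKM at 0 h, 80.6 on +Fe and 281 on -Fe. The nitrate reductases NIA1 and NIA2 were also higher on -Fe, at 33.3 and 92.5 RPKM (1.45) and at 1137 and 2110 RPKM (0.89), with NIA2 inside the threshold against the mean of +Fe at 6 h and 18 h (0.60). Both were lower at 12 h on either medium than at 0 h, where they stood at 145 and 2882 RPKM. These were 4 of the 22 listed genes of nitrogen, phosphate, sulfate and potassium uptake, with NRT1.8 outside the list. Picked after their values were seen, the glutamate synthase GLT1 was higher on -Fe (851 and 1932 RPKM, 1.18), and WR3, annotated as a nitrate transmembrane transporter, and the nitrogen regulator LBD39 were lower (-1.24 and -1.06). GLT1 has 7625 exon bases, and genes of that length had higher ratios as a class.

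Genes of sugar starvation and amino acid breakdown were mostly lower on -Fe. Of 30 listed, 9 were in the table, and 8 were lower on -Fe past the threshold, against 23.6% of all genes. The median ratio was -1.47. The list was chosen with earlier results of these data known and its direction is no independent evidence. MIOX4, which oxidises myo-inositol, was at 2.71 RPKM at 0 h, 145 on +Fe and 16.8 on -Fe (-3.04), and MIOX2 was at 506, 3211 and 928 RPKM (-1.79). DIN3 and DIN4, subunits of the complex that degrades branched-chain keto acids, had ratios of -2.08 and -1.51, and MCCA, of leucine breakdown, -1.47, with 300 exon bases shared with AT1G03100 on the opposite strand. The asparagine synthetase DIN6 was at 1352 RPKM at 0 h, 5127 on +Fe and 2298 on -Fe (-1.16). The proline dehydrogenase ProDH1 was among the most abundant lower genes, at 6804, 20846 and 9949 RPKM (-1.07). The raffinose synthase family gene DIN10 had a ratio of -1.40. GDH1, a glutamate dehydrogenase, was the exception at 353 RPKM on +Fe and 467 on -Fe (0.40). In all 8 lower members the -Fe level at 12 h lay above the level at 0 h and below that on +Fe.

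Of 10 genes of amino acid metabolism by words in their description, 2 were higher and 5 lower, against 10.8% and 23.6% of all genes. The alanine:glyoxylate aminotransferases AGT (121 RPKM on +Fe, 17.8 on -Fe, -2.71) and AGT2 (-1.34) and the amidotransferase-like GAT1_2.1 (-1.68) were farthest from 0, and 553 exon bases of GAT1_2.1 are shared with AT1G05147 on the opposite strand. Other genes of carbon metabolism were picked after their values were seen. They include the phosphoenolpyruvate carboxykinase PCK2 (5644 RPKM on +Fe, 2017 on -Fe, -1.48) and the beta-amylase BMY3 (-1.36). KIN11, a catalytic subunit of the energy-sensing kinase SnRK1, was at 408 RPKM on +Fe and 204 on -Fe, and the bZIP factor BZO2H3 had a ratio of -1.34. Both listed sugar and polyol transporters in the table were lower, PMT6 at 179 and 26.1 RPKM (-2.73) and STP4 at 2639 and 1370 RPKM (-0.95).

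The 250 bases before the start of 4 genes are given because they cover the leading iron gene and 3 members of the sugar starvation group, which shared a direction. They were read from the RefSeq sequence of TAIR10.1 at chr4:10707094-10707343 (plus strand) for IRT1, chr3:17441432-17441681 (minus strand) for DIN6, chr3:12451557-12451806 (minus strand) for ProDH1 and chr4:13297445-13297694 (plus strand) for MIOX4. Capitals mark, on either strand, the G-box CACGTG, the ACTCAT element, the TATCCA element and the W-box core TTGAC, none of which overlaps another here.
IRT1: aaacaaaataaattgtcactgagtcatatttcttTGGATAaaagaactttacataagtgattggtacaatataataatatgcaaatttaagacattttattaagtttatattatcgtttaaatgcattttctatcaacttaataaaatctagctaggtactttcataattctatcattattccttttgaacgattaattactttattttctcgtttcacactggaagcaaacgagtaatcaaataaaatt
DIN6: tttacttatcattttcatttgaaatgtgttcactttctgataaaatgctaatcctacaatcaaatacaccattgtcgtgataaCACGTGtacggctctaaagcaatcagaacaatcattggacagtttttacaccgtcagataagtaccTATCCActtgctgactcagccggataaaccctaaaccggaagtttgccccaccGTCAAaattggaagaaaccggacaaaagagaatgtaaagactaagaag
ProDH1: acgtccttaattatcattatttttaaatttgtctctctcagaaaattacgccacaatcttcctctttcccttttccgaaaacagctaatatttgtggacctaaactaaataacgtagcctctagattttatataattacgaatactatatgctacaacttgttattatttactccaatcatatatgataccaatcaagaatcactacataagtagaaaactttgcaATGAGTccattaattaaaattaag
MIOX4: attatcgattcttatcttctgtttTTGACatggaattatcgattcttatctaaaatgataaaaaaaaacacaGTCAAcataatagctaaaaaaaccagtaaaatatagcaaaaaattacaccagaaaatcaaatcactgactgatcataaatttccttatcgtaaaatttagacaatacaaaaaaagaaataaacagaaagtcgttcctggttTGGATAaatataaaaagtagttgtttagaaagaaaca
The DIN6 window holds 1 G-box, 1 TATCCA and 1 W-box core, that of ProDH1 holds 1 ACTCAT, that of MIOX4 holds 1 TATCCA and 2 W-box cores, and that of IRT1 holds 1 TATCCA. Over windows of the same length, the G-box was found before 6.49% of 27447 annotated genes, 9.06% of the table, 8.05% of the higher genes and 10.0% of the lower genes. ACTCAT was found in 12.3%, 13.3%, 9.2% and 14.2% of the same sets, TATCCA in 13.6%, 15.4%, 17.2% and 21.6%, and the W-box core in 44.9%, 49.3%, 42.5% and 54.2%. Of the 9 sugar starvation members in the table, 2 held the G-box, 1 ACTCAT, 2 TATCCA and 5 the W-box core. The 3 windows shown from this group therefore do not stand for its motif content. These shares and counts describe letters in a window and not binding.

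Genes of indole glucosinolate and camalexin synthesis, sulfur-containing defence compounds of the Brassicaceae, were lower on -Fe together. This list of 20 genes was made after the values were seen, and all 7 that were in the table were lower past the threshold, against 23.6% of all genes, with a median ratio of -1.95. CYP71A12, of the camalexin route, was at 0.0893 RPKM at 0 h, 36.4 on +Fe and 4.36 on -Fe (-2.80). CYP83B1, which feeds indole glucosinolates, was at 37.0, 189 and 59.0 RPKM (-1.67). The methyltransferases IGMT2, IGMT3 and IGMT4, which modify indole glucosinolates, had ratios of -1.98, -2.57 and -1.87, and the glutathione transferases GSTF6 and GSTF7 of -1.95 and -1.86. IGMT2 and IGMT3 share a stretch of 634 near-identical bases, so that reads may have been split between them. At 18 h CYP71A12 and CYP83B1 had ratios of -0.41 and 0.15, inside the threshold, while the IGMT and GSTF members stayed between -1.13 and -0.79.

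The other genes among the 15 lowest were the methyltransferase CCOAMT (-3.15), AT2G41810 of a family of unknown function (2657 RPKM on +Fe and 345 on -Fe, -2.94), the small putative membrane lipoprotein AT3G18250 (-2.88), the cytochromes P450 CYP706A1 (-2.84, from 15.3 to 1.28 RPKM) and CYP705A20 (-2.22), AT1G62480 (-2.24), described as a calcium-binding protein, and AT4G20362 (-2.28). AT4G20362 is a non-coding RNA that shares 1758 exon bases with AT4G20360 on the opposite strand. Some lower genes for proteins with a cysteine and histidine rich C1 domain were picked after their values were seen. They were AT2G44380 (-1.72), AT5G43520 (-1.56), AT2G44370 (-1.51) and AT5G17960 (-0.97). Genes of this family were not counted, and 23.6% of all genes were lower.

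Families were also formed by words in the gene descriptions, and their counts read against 10.8% of all genes higher and 23.6% lower. Of 42 genes with kinase in their description, 1 was higher and 15 were lower on -Fe. This word also matches kinase inhibitors, kinase-related proteins and the carboxykinase PCK2, so these are not counts of protein kinases. The lowest of them were EP1 (-1.96) and AT3G22060 (-1.56), both described as kinase-related, and the leucine-rich repeat kinase AT1G51790 (-1.60). Of 57 genes found by words for transcription factors and zinc fingers, 6 were higher and 12 lower. STOP2 and bHLH38 were highest and the AT-hook protein ESC (-1.49) lowest. These words also match the ubiquitin ligase BTS, other RING-type proteins and the helicase AT2G47680, so these are not counts of transcription factors alone. Of 24 transporters, 6 were higher and 9 lower, and IRT1, NRT2.6 and NRT1.8 were farthest from 0. Of 18 cytochromes P450, 4 were higher and 7 lower. All 3 ribosomal protein genes, AT5G24490, AT2G43030 and AT5G59240, were lower (-1.64, -1.34 and -1.12).

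The same shares of all genes, 10.8% higher and 23.6% lower, stand beside the counts of cell wall genes. Of 24 genes found by words for enzymes of wall polysaccharides 3 were higher and 2 lower, with a median ratio of 0.15. The pectin methylesterase inhibitor family gene AT1G62770 (-1.45), PGIP1 (1.12) and the glycosyl hydrolase AT5G58090 (-0.99) were farthest from 0. Exons of PGIP1 share 1082 bases with AT5G06865 on the opposite strand. These words also match inhibitors such as PGIP1, so these are not counts of enzymes alone. Of 19 genes found by words for structural wall proteins 2 were higher and 1 lower. Those words also match expansins and AT5G06330, described as of a late embryogenesis abundant family. The expansin EXPA17 was lower (1153 and 445 RPKM, -1.37), while EXPA1 was higher (42.5 and 84.0 RPKM, 0.96), and AT5G06330 was just past the threshold (0.78). Of 7 peroxidases only AT2G37130 was past the threshold (-0.99), and SAPX (-0.60) and AT2G18980 (-0.46) were next. Of 5 lipid transfer genes AT3G18280 was higher and AT4G12520 lower (-0.81), while LTP5 was at 0.44. The tonoplast aquaporin TIP2 was lower (-0.92) and TIP4;1 was not past the threshold (-0.11). Against the mean of +Fe at 6 h and 18 h, EXPA1 (0.33), AT5G58090 (-0.72), AT4G12520 (-0.47), TIP2 (-0.48), GRV2 (0.19) and the ribosomal AT2G43030 (-0.55) were inside the threshold, and AT5G06330 was at -0.11.

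Of 8 glutathione transferases 2 were lower, beside 23.6% of all genes, and GSTU19 was at 27121 RPKM on +Fe and 39035 on -Fe (0.53). Of 6 jacalin lectins AT1G33790 alone was past the threshold (-1.73). AT1G52070, also a jacalin lectin and the most abundant gene of the table at 60890 and 72180 RPKM, had a ratio of 0.25, and JAL33 one of -0.11. AT1G52060 was the second most abundant gene, at 42123 and 43506 RPKM (0.05). Of 6 heat shock genes by description GRV2 alone was past the threshold (0.90), with HSFA6B at -0.38 and AT5G37750 at 0.43. MYA1, a myosin and the only cytoskeleton gene found, had a ratio of 0.51. No listed gene of the circadian clock (18 listed) or of abscisic acid and cold (8 listed) was in the table, and no histone, photosynthesis or mitochondrial respiration gene was found by words.

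A few further higher genes were picked after their values were seen. The flavin monooxygenases YUC8 and YUC5, enzymes of auxin synthesis, were at 435 and 926 RPKM (1.09) and at 111 and 192 RPKM (0.79). The oxidase RBOHD, a source of extracellular superoxide, was at 40.4 and 103 RPKM (1.33). The glucosyltransferases UGT73B2 and UGT75B1 had ratios of 1.16 and 1.05, and CYP81D11 was at 2128 and 4094 RPKM (0.94). The genes nearest the upper limit were FAB1C (0.76) and AT5G06330 inside it and FAB1A and AT1G14185 (0.75 after rounding) just outside. Nearest the lower limit were AT4G03480 and AT1G36060 (-0.77) inside and RTL1 and AT3G20510 (-0.75 after rounding) just outside.

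The levels at 0 h show how far each medium stood from the start. Both 12 h groups are set against the same 0 h libraries, and the genes were grouped by the ratio of these 12 h groups. The values are therefore given side by side and are no independent evidence. That limit also holds for the counts against 0 h among the leading and sugar starvation genes above. No share over all genes was computed for those counts. The 190 lower genes had a median of 68.6 RPKM at 0 h, 230 on +Fe and 96.9 on -Fe at 12 h. Their median log2 ratio to 0 h was 1.72 on +Fe (quartiles 1.31 and 2.22) and 0.45 on -Fe (0.16 and 0.81). The 87 higher genes had a median of 113 RPKM at 0 h, 45.6 on +Fe and 103 on -Fe. Their median ratio to 0 h was -1.08 on +Fe (-1.64 and -0.66) and 0.03 on -Fe (-0.41 and 0.76). In both groups the median was therefore farther from 0 on +Fe than on -Fe. Over all 806 genes, 366 (45.4%) were past 0.75 on +Fe against 0 h, 212 of them above (26.3%) and 154 below (19.1%). On -Fe against 0 h, 140 genes (17.4%) were past it, 91 above (11.3%) and 49 below (6.08%). Between 0 h and +Fe at 12 h, transfer and the 12 h that passed cannot be told apart, while both 12 h groups share these and differ in the medium.

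**Figure D4:**
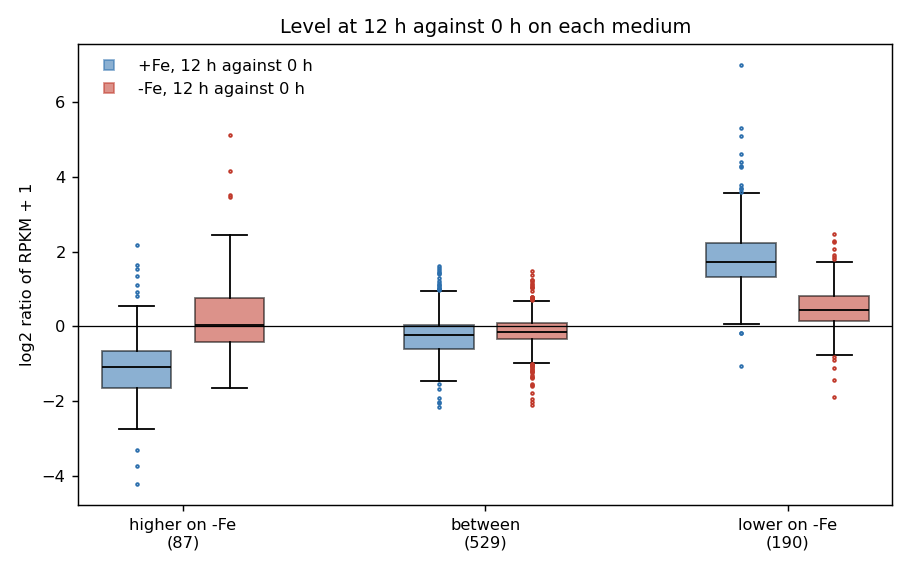
Log2 ratio of RPKM + 1 at 12 h to 0 h on +Fe (blue) and on -Fe (red), for genes higher on -Fe, between and lower on -Fe at 12 h, with the number of genes in brackets. Boxes span the quartiles with the median as a line, whiskers reach the last gene within 1.5 box lengths, and dots are genes beyond. The +Fe box of the lower genes lies at a median of 1.72 and their -Fe box at 0.45.

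The ratios at 6 h and 18 h come from other libraries than those at 12 h. Of the 190 genes lower at 12 h, 167 (87.9%) were also lower past the threshold at 6 h and 80 (42.1%) at 18 h, where 23.3% and 11.4% of all genes were. Of the 87 higher genes, 33 (37.9%) were also higher past the threshold at 6 h and 32 (36.8%) at 18 h, where 9.18% and 6.82% of all genes were. The selection of the 806 genes may have used these times, and its part in these shares was not tested. Lower at all 3 times were 74 genes and higher at all 3 were 20, while 17 of the lower and 42 of the higher genes were past the threshold at 12 h alone of the 3 times. Across the 806 genes the ratio at 12 h had a Pearson correlation of 0.82 with that at 6 h and 0.73 with that at 18 h (Spearman 0.71 and 0.67), which are descriptions over genes and not over replicates.

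The named groups differed in their course. Over the times of 6, 12 and 18 h, the iron uptake effectors had median ratios of 0.52, 1.31 and 2.52, and the iron regulators of 0.69, 1.28 and 1.83. The sugar starvation genes were at -1.48, -1.47 and -1.08, and the indole genes at -1.61, -1.95 and -0.88. Fewer of all genes were past the threshold at 18 h (6.82% higher and 11.4% lower) than at 12 h. At 24, 30 and 36 h the sugar starvation medians were -1.67, -2.04 and -0.86, and the indole medians -1.55, -2.08 and -1.81. Those of the iron uptake effectors were then 2.31, 2.65 and 3.12, and those of the iron regulators 1.82, 3.08 and 3.53. At 12 h the iron medians were thus between those of 6 h and 18 h, and the sugar starvation median at 12 h was near that at 6 h. AT1G10160, PP2-A10, ABCB15 and AT3G63380 were instead nearer to 0 at 18 h, with ratios of 0.41, 0.52, 0.51 and 0.02.

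Exon length moved with the ratio. The 54 genes of over 4000 exon bases had a median ratio of 0.43 at 12 h, -0.41 at 6 h and 0.02 at 18 h. Of them 11 (20.4%) were higher and 5 (9.26%) lower at 12 h, and 44 were above 0. The other 5 length classes had medians between -0.09 and 0.08 at 12 h. Against 0 h, the long genes had a median of 0.03 on +Fe and 0.34 on -Fe. The 11 long genes that were higher include GLT1, ABCB15, AT1G10160, ABCC7 (1.35), GRV2, ATR (0.81) and FAB1C, and the part of length in their ratios was not tested. Without genes over 4000 bases, 76 genes were higher and 185 lower. IRT1, IRT2, MTP3 and NRT1.1 have 1564, 1394, 2176 and 2202 exon bases. With each ratio taken relative to the median of its length class, 74 genes were higher and 198 lower, and 4 named genes, GRV2, FAB1C, AT5G06330 and AT4G12520, were no longer past the threshold.

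**Figure D5:**
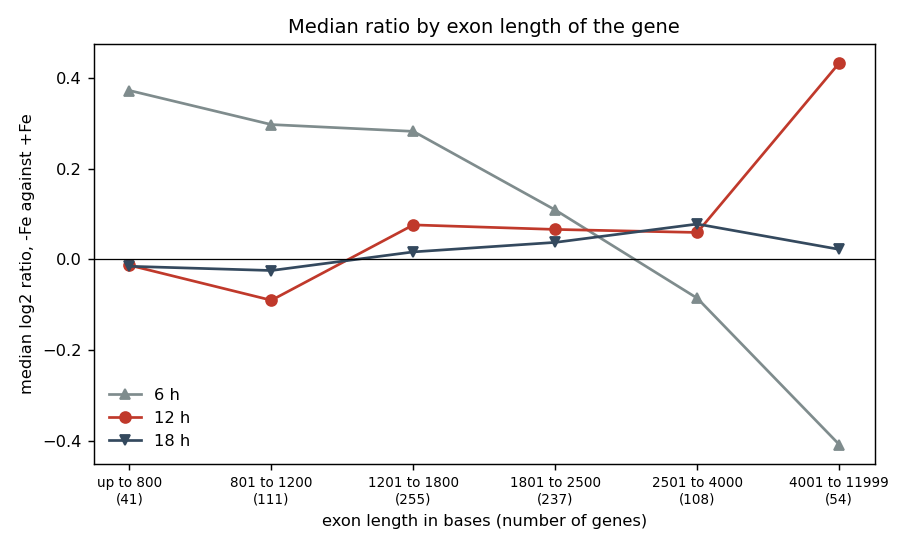
Median log2 ratio of -Fe to +Fe at 6 h, 12 h and 18 h for 6 classes of exon length, with the number of genes in brackets. The class above 4000 bases lies at -0.41 at 6 h and 0.43 at 12 h, and the lines of 12 h and 18 h lie within 0.1 of 0 in the other classes.

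Cell type markers were few in the table. Of 20 epidermis and root hair markers, GL2 and GL3, regulators of the non-hair fate, were present. GL2 was at 189 RPKM at 0 h, 410 on +Fe and 188 on -Fe at 12 h (-1.12), and GL3 was at 19.9, 51.6 and 24.6 RPKM (-1.04). Both were near their 0 h level on -Fe and above it on +Fe, and at 18 h their ratios were -0.10 and 0.19. Against the mean of +Fe at 6 h and 18 h, GL2 and GL3 had ratios of -0.65 and -0.54, inside the threshold. Their summed level was 461 RPKM on +Fe and 213 on -Fe. WER, whose promoter drives the reporter, was not analysed here. Of 20 markers of other root cell types only BRN1, of the root cap, was in the table, at 1384 RPKM on +Fe and 1517 on -Fe (0.13). In sorted cells, fewer cells of a type and less RNA per cell cannot be told apart, and the part of cell composition in the ratios was not tested.

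The values of the 13 groups are relative to the 806 genes themselves. The sum of RPKM times exon length varied by 0.325% (coefficient of variation) between groups, against 2.39% for plain sums of RPKM, and the 10 largest genes held 27.5% of that sum on +Fe and 29.6% on -Fe at 12 h. Read depth per library is unknown, since low values were whole multiples of a smallest step in 82 of 857 cases (9.57%), no more than the 10% that a tolerance of 0.05 gives. Of the 806 genes, 205 share exon bases with another annotated gene.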

How the data were processed

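The authors transferred seedlings, sorted GFP-positive epidermal protoplasts and sequenced 3 libraries per group. By the study's methods and the submitters' processing notes, reads were checked with FastQC, mapped to TAIR10 with TopHat2 and counted with RSubread, and differential expression was called with edgeR. The authors deposited RPKM values of 806 genes, with 1 value per group, and how these genes were selected is not given in the sources used here. How the 3 libraries were combined is not given in the sources used here. The labels name a directional poly(A) kit and the methods another, and the methods describe FeEDTA in both media.

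The log2 ratio of RPKM + 1 of -Fe to +Fe at 12 h was computed with Python 3.11.15 (pandas 2.3.3, numpy 2.4.6), counted at 0.75 either way and checked on simulated data. With 1 pooled value per group no test, error or interval was possible, and the depth is unknown. Named genes were the 15 highest and 15 lowest ratios with at least 10 RPKM in the higher group, genes listed at 0, all list members, the 3 members farthest from 0 of each word list, 2 genes on each side of each limit and the 3 most abundant genes. Members and lists were chosen with earlier results of these data known, and the indole list and length classes were added after these values were seen. Exons, overlaps and promoters came from RefSeq TAIR10.1, where all 806 identifiers matched, and stretches of at least 125 bases and 97% identity were found with blastn 2.17.0. Alternatives changed the pseudocount, threshold, level filter, scaling, control and length.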

Additional observations from a re-analysis of the deposited data

Results flagged for a closer look

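Genes past the threshold in opposite directions at 12 h and another time after transfer are given here. Each level is 1 pooled value and the differences between times were not tested. At 6 h, 3 genes stood opposite to 12 h. AT4G12520, of the lipid transfer type, had a ratio of -0.81 at 12 h (262 RPKM on +Fe and 149 on -Fe) and 0.87 at 6 h (151 and 278 RPKM). The DNA damage kinase ATR, of 9295 exon bases, had a ratio of 0.81 at 12 h (5.27 and 10.0 RPKM) and -0.85 at 6 h (11.3 and 5.80 RPKM), and it stood at -0.90 at 24 h. NAC2 had a ratio of 1.21 at 12 h (1.98 and 5.89 RPKM) and -0.91 at 6 h (3.99 and 1.66 RPKM).

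At 36 h, 6 genes stood opposite to 12 h. F6'H1, of coumarin synthesis, was lower on -Fe at 12 h (-1.40, 140 and 52.7 RPKM) and higher at 36 h (1.65, 29.9 and 96.3 RPKM). The alkenal reductase AER was higher at 12 h (1.35) and lower at 36 h (-0.77). The peptide transporter PTR3 (-1.80), the pentatricopeptide repeat gene BIR6 (-1.34), AT3G48410 (-0.78) and the gibberellin-regulated family gene AT5G14920 (-0.91) were lower at 12 h and higher at 36 h, at 0.87, 1.38, 1.07 and 2.04. No gene was past the threshold in opposite directions at 12 h and 18 h or at 12 h and 30 h.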

How the results depend on the processing

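Of 8 planned changes to the processing at the same threshold (pseudocounts of 0.1, 0.01 and 10, a mean of at least 10 RPKM, centring on the median or on a trimmed mean, rescaling without the 10 largest genes, and another control), 7 kept the counts of higher and lower genes within 1.5 times 87 and 190. With the mean of +Fe at 6 h and 18 h as control, 55 genes were higher and 152 lower, of which 43 and 149 were among the original 87 and 190, and AT5G06330 turned from 0.78 to -0.11. A threshold of 1 left 54 higher and 145 lower. Rescaling without the 10 largest genes gave 104 higher and 176 lower, and a common shift of 0.24, added after the values were seen, gave 150 and 148. Of 104 named genes, 13 besides AT5G06330 lost their call with the other control, among them GL2, GL3, NIA2, ZIP5, GRV2 and AT3G18280, and 7 with a pseudocount of 10, including IMA2 and PGIP1. FER3 passed the threshold under both centrings. IRT1, IRT2, bHLH38 and NRT2.6 kept their direction and call under every alternative run, and FRO4 did so except that the level filter removed it. No replicate could be left out. No paired analysis was possible because the deposited table holds 1 pooled value per group and none per library. Depth limits could not be computed from pooled RPKM values.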
